A study of Mus musculus with 8 samples.

Results

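The genes described here encode the mouse proteins of the methyl-CpG-binding domain (MBD) family, Mbd1, Mbd2, Mbd3, Mbd4, Mbd5 and Mbd6, together with the methyl-CpG-binding zinc finger proteins Zbtb4 and Zbtb38. All 8 were found by symbol among 21887 protein-coding genes with a position, of which 18310 had at least 1 region with a 5-hydroxymethylcytosine (5hmC) peak. The genes were listed by name, and Zbtb38 was put on the list because earlier results of these data showed many regions of lower 5hmC in the knockout there. The KO against WT values of Zbtb38 are therefore a description. The cells were germinal center B cells from spleens of C57BL/6 mice that were TET2 Knock-Out (KO) or TET2 Wild-Type (WT), and DNA carrying 5hmC had been immunoprecipitated and sequenced (hMeDIP-seq). There were 2 KO and 2 WT libraries, numbered 2 and 3 in both genotypes, and 4 input libraries that are not analysed here. Whether the deletion was general or limited to B cells, the age and sex of the animals, and whether the 2 libraries of each genotype were made from different mice are not given in the sources used here, so the spread between libraries may be technical.

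TET enzymes such as TET2 oxidize 5-methylcytosine to 5hmC, mostly at CpG dinucleotides. Some proteins of the MBD family and of the ZBTB zinc finger family read the unoxidized mark: Mbd1, Mbd2, Zbtb4 and Zbtb38 bind methylated CpG and recruit repressors, and oxidation to 5hmC generally weakens such binding. Germinal center B cells divide quickly and mutate their antibody genes, and 5hmC in B cells is found in gene bodies and around enhancers. The data concern 5hmC on the DNA of these reader genes and not the amount or the binding of the proteins.

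The start regions of Zbtb38, Zbtb4 and Mbd6 are shown first, since they include 3 of the 5 member starts with a 5hmC peak of every library within 1000 bases and, for comparison, a Zbtb38 start with none. Each sequence holds the 250 bases before a transcript start, 5′ to 3′ in the direction of transcription, from RefSeq on GRCm38.p6, with every CpG in capitals. Zbtb38 has 3 annotated starts, on the minus strand, and its farthest upstream start (chr9:96731676-96731925) and an internal start 11.82 kb downstream (chr9:96719851-96720100) are given. Zbtb4 (chr11:69765662-69765911, plus strand) and Mbd6 (chr10:127289019-127289268, minus strand) follow.
Zbtb38 upstream start: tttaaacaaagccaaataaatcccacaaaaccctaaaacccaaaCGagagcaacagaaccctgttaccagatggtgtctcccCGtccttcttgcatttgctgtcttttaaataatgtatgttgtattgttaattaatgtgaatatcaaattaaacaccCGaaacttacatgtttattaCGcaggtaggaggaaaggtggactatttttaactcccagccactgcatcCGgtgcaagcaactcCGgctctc
Zbtb38 internal start: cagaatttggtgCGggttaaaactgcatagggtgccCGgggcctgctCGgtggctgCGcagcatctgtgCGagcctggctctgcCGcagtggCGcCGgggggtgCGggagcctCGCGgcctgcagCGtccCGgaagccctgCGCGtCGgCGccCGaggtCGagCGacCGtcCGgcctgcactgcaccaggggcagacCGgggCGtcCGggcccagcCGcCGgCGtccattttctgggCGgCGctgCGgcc
Zbtb4 start: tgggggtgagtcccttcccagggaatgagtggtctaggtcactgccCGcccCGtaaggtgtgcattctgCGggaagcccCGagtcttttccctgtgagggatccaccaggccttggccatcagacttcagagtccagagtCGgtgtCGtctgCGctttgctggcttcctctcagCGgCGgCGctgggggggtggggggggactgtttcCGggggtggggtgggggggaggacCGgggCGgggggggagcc
Mbd6 start: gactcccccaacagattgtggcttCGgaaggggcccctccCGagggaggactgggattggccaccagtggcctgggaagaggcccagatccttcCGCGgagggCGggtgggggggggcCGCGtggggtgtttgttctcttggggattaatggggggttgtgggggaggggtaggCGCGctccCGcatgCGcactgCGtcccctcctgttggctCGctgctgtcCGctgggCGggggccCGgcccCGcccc
The upstream start of Zbtb38 had 6 CpG dinucleotides in 250 bases and a GC content of 40.4%, and 50.4% of the 32851 start windows in the RefSeq table had at least as many. The internal start had 31 CpG and 74.0% GC, a CpG number reached by 5.19% of windows. A second internal start (chr9:96719446-96719695) had 23 CpG. Zbtb4 had 13 CpG (31.5% of windows had as many) and the Mbd6 window shown had 17 (23.5%). The other Mbd6 window (chr10:127288882-127289131), not shown, had 32 (4.58%).

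No library had a peak within 1000 bases of the upstream start of Zbtb38, whose CpG number is near the middle of all start windows. At its CpG-rich internal starts no peak entered the 250 bases, but peaks flanked them in every library. The nearest peak edge was 330 bases from the start at 31 CpG in KO replicate 2 and 454 in KO replicate 3, against 391 in WT replicate 2 and 381 in WT replicate 3. Zbtb4 was the 1 gene whose start window was touched by peaks, with 25 bases covered in KO replicate 2 and 31 in KO replicate 3, against 47 in WT replicate 2 and 0 in WT replicate 3. In total 1 of the 10 start windows of the 6 genes with an entry (Mbd3, Mbd4, Mbd5, Mbd6, Zbtb4 and Zbtb38) overlapped a peak. Over all windows the share was 8.80%, and it was 11.0% in windows with 3 to 5 CpG and 5.45% in those with 25 to 56 CpG. A peak in all 4 libraries within 1000 bases of a start was found for 19.4% of all starts, and for 5 of these 10 starts, those being the 2 internal starts of Zbtb38, both starts of Mbd6 and the start of Zbtb4. Both Mbd6 starts lay near the same peaks, as did the 2 internal starts of Zbtb38, so these 5 starts are not independent. CpG numbers were 13 to 32 at these 5 starts and 4 to 22 at the rest, so the ranges overlapped. The highest numbers, 32 (Mbd6), 31 and 23 (Zbtb38), were among the 5, and the lowest, 4 (Mbd5) and 6 (Zbtb38), among the rest. The starts of Mbd3 (14 CpG) and Mbd5 (16 and 4 CpG) had no peak within 1000 bases in any library, and that of Mbd4 (22 CpG) had one in KO replicate 2 and in WT replicate 2.

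The lists held 270542 to 300950 peaks per library on the nuclear chromosomes, with median fold enrichments over the peak caller's local background of 5.10 in KO replicate 2 and 4.38 in KO replicate 3, against 5.51 in WT replicate 2 and 4.89 in WT replicate 3. Read totals are not given in the sources used here. The most frequent local background, a stand-in for depth recovered from the peaks, was 11.55, 10.87, 8.66 and 11.69 reads in the same order, lowest in WT replicate 2. Its part in the peak differences was not tested. Fold enrichments are the authors' values and describe peaks within their own list. KO replicate 3 had the least covered sequence, 110.6 Mb, against 124.8 to 139.3 Mb in the other libraries. The targeted gene Tet2 had 3213 and 2444 bases under peaks in KO, against 3191 and 2810 in WT, which is a measure of 5hmC and does not check the genotype labels. Each of 10 germinal center B cell marker genes, Pax5 and Bcl6 among them, carried peaks, at a median of 210.9 scaled bases per kb, beside 77.2 for T cell, 54.0 for myeloid, 38.3 for plasma cell and 19.2 for erythroid markers. A 5hmC level is not an expression level, so this compares the DNA of the marker genes and does not measure purity.

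Zbtb38, a zinc finger repressor that binds methylated CpG, had less sequence under 5hmC peaks in the KO libraries than in the WT libraries. The gene spans positions 96682767 to 96731675 of chromosome 9 (GRCm38) and was read with 2 kb on each side. Peaks covered 4611 bases of this window in KO replicate 2 and 4139 in KO replicate 3, against 7207 in WT replicate 2 and 7418 in WT replicate 3. After scaling the libraries to equal coverage over all gene windows, the values were 4317 and 4869 bases in KO, against 7226 and 6840 in WT, so the genotypes did not overlap. Both KO libraries were likewise below both WT libraries for 13.6% of the 14001 tested genes. The mean was 4593 ± 391 bases in KO, against 7033 ± 273 in WT (SD, n = 2 each). The log2 change of scaled bases plus 200, KO minus WT, was -0.60 (standard error 0.11), and 372 of 14001 tested genes had a change at least as low. The number of peaks was 8 and 9 in KO, against 12 and 13 in WT.

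Peaks of the 4 lists merged into 15 union regions over Zbtb38, of which 6 were found in every library, 3 in the 2 WT libraries alone and 0 in the 2 KO libraries alone. Of the 15, 7 contained a WT-higher region, that is, a region that the authors' deposited table lists as enriched in WT cells, as did 7.26% of union regions in all gene windows. In bulk DNA, fewer cells with 5hmC at a site and less 5hmC per cell cannot be told apart. The 7 regions together held 1529 and 1383 covered bases in KO, against 4383 and 4325 in WT. The remaining 8 held 3082 and 2756 bases in KO, against 2824 and 3093 in WT, where the genotypes overlapped. The regions were chosen by the authors because WT exceeded KO, so both the gap in the 7 and the overlap in the remaining 8 follow from that choice and are a description. The plot of covered bases by region gives the value of each library in each region.

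**Figure D1:**
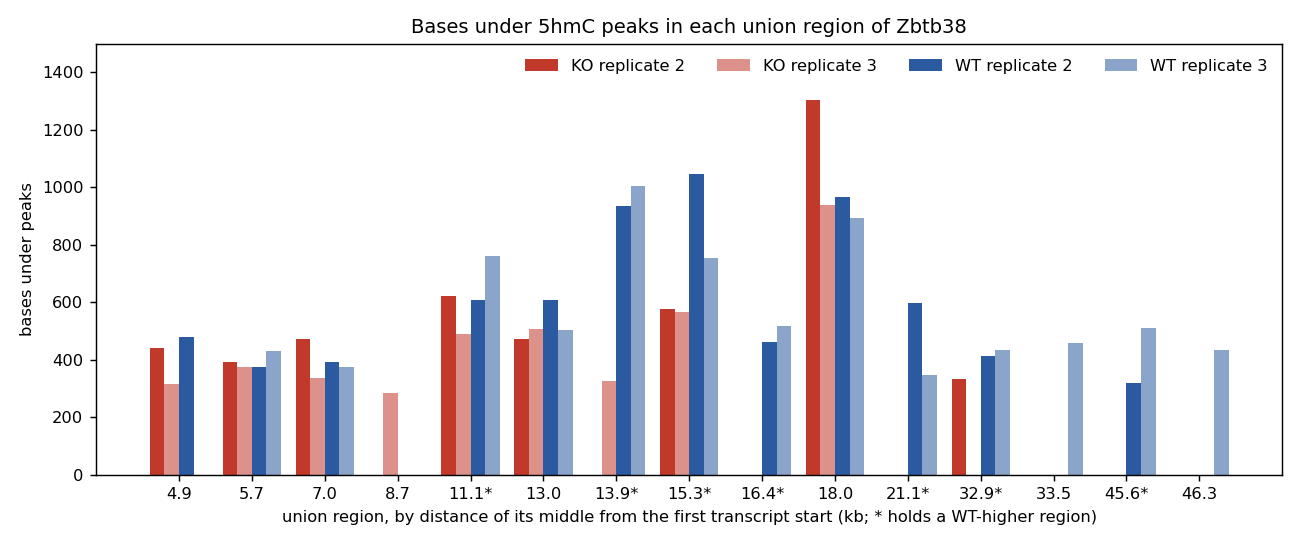
Bases under 5hmC peaks (vertical axis) in each of the 15 union regions of Zbtb38, ordered along the gene by distance in kb from the first transcript start, with 1 bar per library (KO replicates 2 and 3, then WT replicates 2 and 3). Starred regions contain a deposited WT-higher region, and at 16.4, 21.1 and 45.6 kb both WT libraries have a peak and neither KO library does.

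The 4 union regions in the first 9 kb after the upstream start contained no WT-higher region. The first of them, 4.90 kb after the start, had a fold enrichment of 4.38 in KO replicate 2 and 3.62 in KO replicate 3, against 5.00 in WT replicate 2, with no peak in WT replicate 3. All the WT-higher regions in the gene body lay from 10.95 kb onward, around and beyond the internal CpG-rich starts. The union region 15.32 kb after the start had the highest fold enrichment of the gene in every library, with 82 reads at the summit over a local background of 13.73 in KO replicate 2 and 92 over 12.07 in KO replicate 3, against 103 over 8.66 in WT replicate 2 and 79 over 11.69 in WT replicate 3. Its fold enrichments were 5.64 and 7.11 in KO, against 10.77 and 6.31 in WT. The unscaled read number at this summit thus overlapped between genotypes, while the bases covered there, 575 and 567 in KO, against 1047 and 753 in WT, did not.

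**Figure D2:**
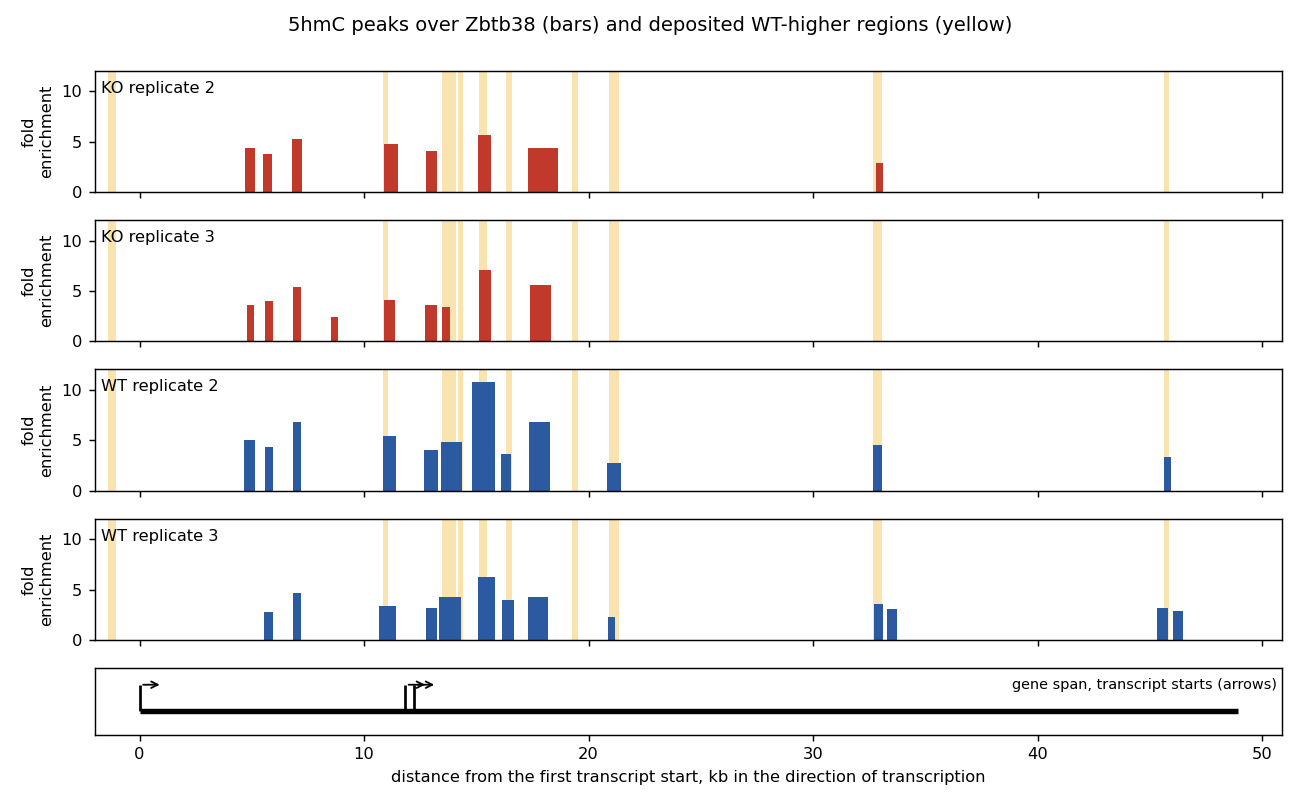
Peaks of each library over Zbtb38, with fold enrichment at the summit as bar height, peak extent as bar width and distance from the first transcript start in kb on the horizontal axis. Yellow bands are the 10 deposited WT-higher regions, and the arrows at 0, 11.82 and 12.23 kb mark the transcript starts. Peaks beyond 20 kb are found in both WT libraries at 3 places and in KO replicate 2 at 1.

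In the authors' deposited table, Zbtb38 had 10 WT-higher regions with a total width of 3372 bp and a median score of 5.06, beside 4.77 over all 24645 WT-higher regions. The scale of the score is not stated. The highest score, 7.37, belonged to positions 96698612 to 96698990, 32.87 kb after the upstream start and above 95.2% of the table. A peak covered 259 bases of it in KO replicate 2 and 0 in KO replicate 3, against 379 in WT replicate 2 and 360 in WT replicate 3. Next came one with 7.12 in the authors' deposited table, at 96717589 to 96718219 and 1.54 kb downstream of an internal start. Peaks covered 0 and 326 of its bases in KO, against 631 in each WT library. Its neighbor at 96717253 to 96717469 scored 6.17 in the authors' deposited table and was covered in neither KO library, against 175 and 127 bases in WT. At these 3 regions the KO libraries had narrower peaks or none.

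Other WT-higher regions of Zbtb38 showed further forms. The one at 96720606 to 96720841, at -0.87 kb from an internal start (upstream) and of score 3.88 in the authors' deposited table, had a peak in every library, as did the one at 96716205 to 96716568 (score 5.93). Regions at 96685830 to 96686043, 96710306 to 96710781 and 96715062 to 96715333 had peaks in the WT libraries alone. These WT peaks were weak, with fold enrichments of 2.29 to 3.94. Finally, 2 of the 10, at 96712156 to 96712395 and at 96732718 to 96733060, overlapped no peak of any library. That second position is centred at -1.21 kb, upstream of the first start and outside the gene span. In the authors' deposited table, 5 of the 10 scored 5 or more.

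Among strong peaks the pattern did not hold. Where only peaks enriched 5-fold or more were counted, they covered 1047 and 1840 bases of Zbtb38 in KO, against 3496 and 753 in WT, and the log2 change was then 0.11 with a standard error of 0.99. WT replicate 2, which had the highest median fold enrichment of the 4 lists, stood above the rest and WT replicate 3 below them. Genotypes that were apart over all peaks thus overlapped over the strong ones. With the same number of peaks taken from each list the log2 change was -0.41 (standard error 0.21).

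The share of Zbtb38 union regions containing a WT-higher region was 46.7% (7 of 15). Zbtb38 was listed for its WT-higher regions, so this share and its place among other genes are a description. The 7.26% for all gene windows rests on 148856 union regions. Of 4063 genes with at least 10 union regions, 5 reached a share as high, Zbtb38 included, and the median was 6.35%. By the number of WT-higher regions alone, 167 genes had at least 10. The nearest gene on each side is given for comparison. Rasa2, a Ras GTPase-activating protein gene 51.2 kb away, had 0 WT-higher regions in 12 union regions and scaled coverage of 4288 and 4832 bases in KO, against 4521 and 4495 in WT. Pxylp1, a phosphatase gene 91.7 kb away on the other side, had 1 WT-higher region in its window, and 2 of its 11 union regions overlapped a WT-higher region. It had 3743 and 4002 scaled bases in KO, against 4640 and 3639 in WT. In both neighbors the genotypes overlapped in coverage.

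Over the 4 libraries, the tested genes with scaled coverage nearest to that of Zbtb38 were Tram2, Klc1, Mfhas1, Slc44a3 and Eri3, at Euclidean distances of 0.13 to 0.32 on the log2 scale. Their log2 changes ran from -0.60 (Tram2 and Klc1) to -0.28 (Eri3). The genes were matched on the values of these same 4 libraries, so changes of this sign follow from the matching. They held 4, 3, 6, 2 and 0 WT-higher regions in the same order, against 10 in Zbtb38. Zbtb38 was listed for its WT-higher regions, so its higher number is a description.

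Zbtb4, a related zinc finger protein that binds methylated CpG, lies at 69765912 to 69784026 on chromosome 11 and had the densest 5hmC of the 8 genes, 162.8 scaled bases per kb of window. The median over genes with a union region was 46.8. Peaks covered 3699 and 2900 bases in KO, against 3787 and 4041 in WT. Scaled, these were 3463 and 3412 bases in KO, against 3797 and 3726 in WT, a narrow gap without overlap, and the log2 change was -0.12 (standard error 0.11). Counting only peaks enriched 5-fold or more, it was -0.66 (standard error 0.33). Each library had 7 peaks. The strongest region lay 1.26 kb downstream of the start, with fold enrichments of 7.97 and 6.66 in KO, against 7.43 and 7.33 in WT, and the other regions found in every library lay at -1.41, -0.54, 9.5, 10.11 and 12.26 kb. The 1 WT-higher region, at 69766721 to 69766979 with a score of 3.99 in the authors' deposited table, lay inside that strongest peak and was covered completely in every library. Both genotypes thus had a full peak at this listed region.

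**Figure D3:**
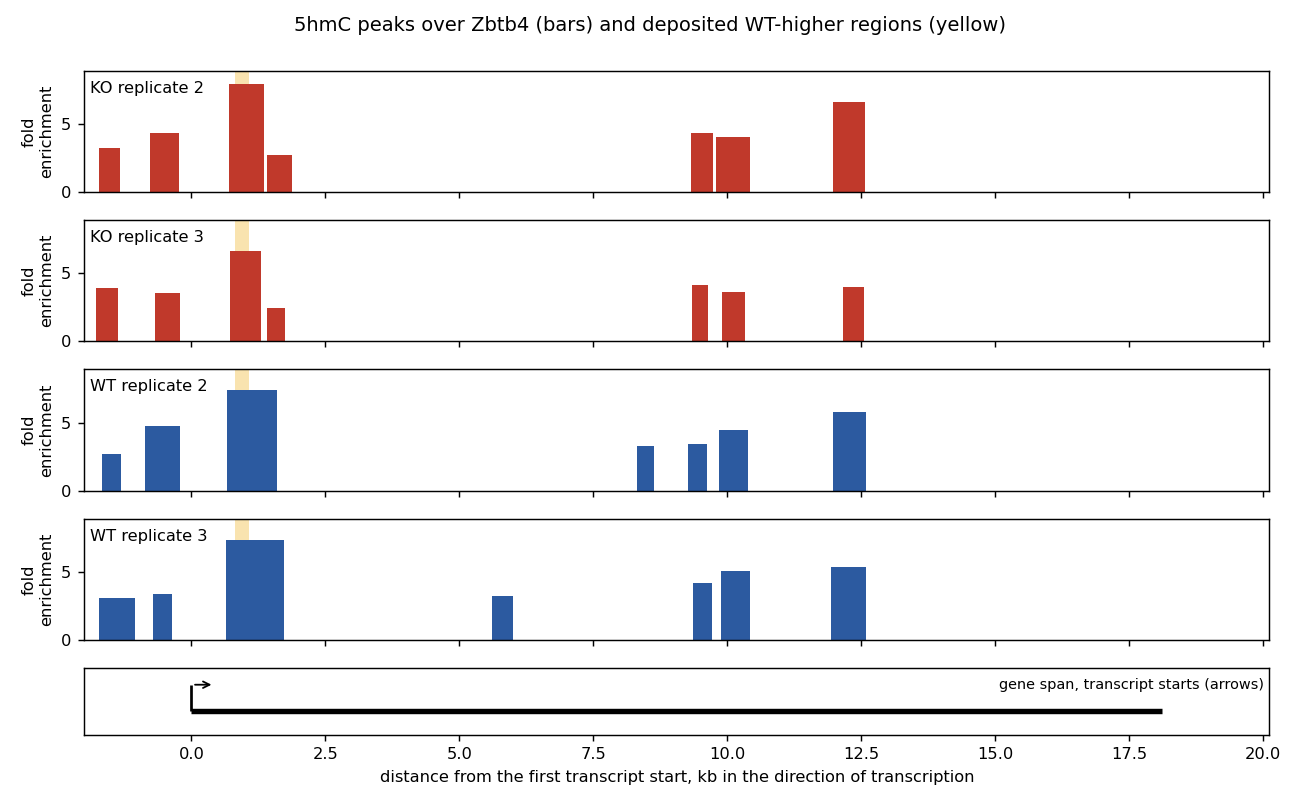
Peaks of each library over Zbtb4, drawn as for Zbtb38: fold enrichment at the summit as bar height against distance from the transcript start in kb. The single deposited WT-higher region (yellow, 0.94 kb) falls within the strongest peak of each library, and no library has a peak beyond 13 kb.

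Mbd2, which binds methylated CpG and joins the nucleosome remodeling and deacetylase complex NuRD, spans 70568225 to 70629134 on chromosome 18. It had 14 to 19 peaks per library. They covered 8962 bases in KO replicate 2 and 6384 in KO replicate 3, against 9096 in WT replicate 2 and 9999 in WT replicate 3. Scaled coverage was 8390 and 7510 bases in KO, against 9120 and 9220 in WT, without overlap, and the log2 change was -0.20 (standard error 0.09). Of its 23 union regions, 11 were found in every library, 2 in the 2 WT libraries alone and 6 in a single library. The strongest in 3 of the 4 libraries, at 70608818 to 70609398, had fold enrichments of 9.79 and 6.73 in KO, against 10.32 and 10.64 in WT. Counting only peaks enriched 5-fold or more, the log2 change was 0.02 (standard error 0.28), so the direction did not hold there.

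The 2 WT-higher regions of Mbd2 differed. The one at 70571246 to 70571525 (score 5.13 in the authors' deposited table) was fully covered by peaks in all 4 libraries, with 52 and 42 reads at the summit in KO, against 57 and 62 in WT. Its fold enrichments over local background were 4.22 and 2.95 in KO, against 5.99 and 3.78 in WT, where the genotypes overlapped. The one at 70596854 to 70597061 (score 3.62 in the authors' deposited table) had a peak in WT replicate 3 alone. They lay in 2 of 23 union regions (8.70%, Wilson 95% interval 2.42 to 26.8%, counting error only), a share whose interval holds the 7.26% of all gene windows.

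Mbd3, the NuRD subunit whose mammalian MBD domain has lost most preference for methylated CpG, carried almost no 5hmC peaks. Its span, 80392539 to 80399531 on chromosome 10, had none, and its window had 1 union region, centred at -1.61 kb from the start (upstream). Peaks covered 0 bases there in KO replicate 2 and 274 in KO replicate 3, against 385 in WT replicate 2 and 360 in WT replicate 3. Its summit held 38 reads in KO replicate 3, against 45 in WT replicate 2 and 47 in WT replicate 3, over local backgrounds of 10.87, 8.66 and 11.69 reads in that order. A WT-higher region of score 4.82 in the authors' deposited table (80400977 to 80401257) covered most of it. Coverage was under the minimum of 500 bases, so Mbd3 was not tested.

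Mbd1, which binds methylated CpG and recruits a histone methyltransferase, lies at 74267605 to 74282737 on chromosome 18 and had 3 peaks in every library, in the same 3 union regions. Scaled coverage was 1551 and 1707 bases in KO, against 1538 and 1518 in WT, with a log2 change of 0.08 (standard error 0.14). It had no differential region. Mbd4, a DNA glycosylase that removes thymine and uracil mispaired with guanine at CpG sites, lies at 115840697 to 115853400 on chromosome 6 and had no peak within its span. Its 1 union region, at -0.97 kb from the start and inside the span of the adjoining gene Ift122, was covered by 507 bases in KO replicate 2 and 0 in KO replicate 3, against 311 in WT replicate 2 and 0 in WT replicate 3. With fold enrichments of 2.88 and 2.58 these peaks were among the weakest 2.8% of the KO replicate 2 list and the weakest 0.3% of the WT replicate 2 list. Presence followed the replicate number and not the genotype, and Mbd4 was not tested.

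Mbd5 and Mbd6 have MBD domains that do not bind methylated DNA, and both associate with the PR-DUB complex, which removes ubiquitin from histone H2A. Mbd5, by far the longest of the 8 genes at 370190 bp (48949499 to 49319688 on chromosome 2), had 32 to 33 peaks per library. They covered 15022 and 12273 bases in KO, against 13703 and 15070 in WT. Scaled, the values were 14064 and 14438 bases in KO, against 13739 and 13896 in WT, with a log2 change of 0.04 (standard error 0.07). Of its 39 union regions, 28 (71.8%) were found in all 4 libraries. Its strongest peaks reached fold enrichments of 12.11 and 8.81 in KO, against 12.77 and 11.05 in WT, above at least 97.1% of peaks in each list. The density was low, 37.5 scaled bases per kb, and no peak lay within 9520 bases of its upstream start. The 1 WT-higher region (49278243 to 49278450, score 4.23 in the authors' deposited table) lay on a peak of all 4 libraries.

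Mbd6 (127281956 to 127290869 on chromosome 10) had 2 peaks in each library, in union regions centred 0.49 and 2.96 kb downstream of a start. This is the farther upstream of its starts with a window (127289018), and it lies inside the gene span. Scaled coverage was 889 and 1285 bases in KO, against 1188 and 933 in WT, and the genotypes overlapped (log2 change 0.02, standard error 0.23). It had no differential region. The peak next to the start shown above covered 450 and 277 bases in KO, against 355 and 441 in WT.

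**Figure D4:**
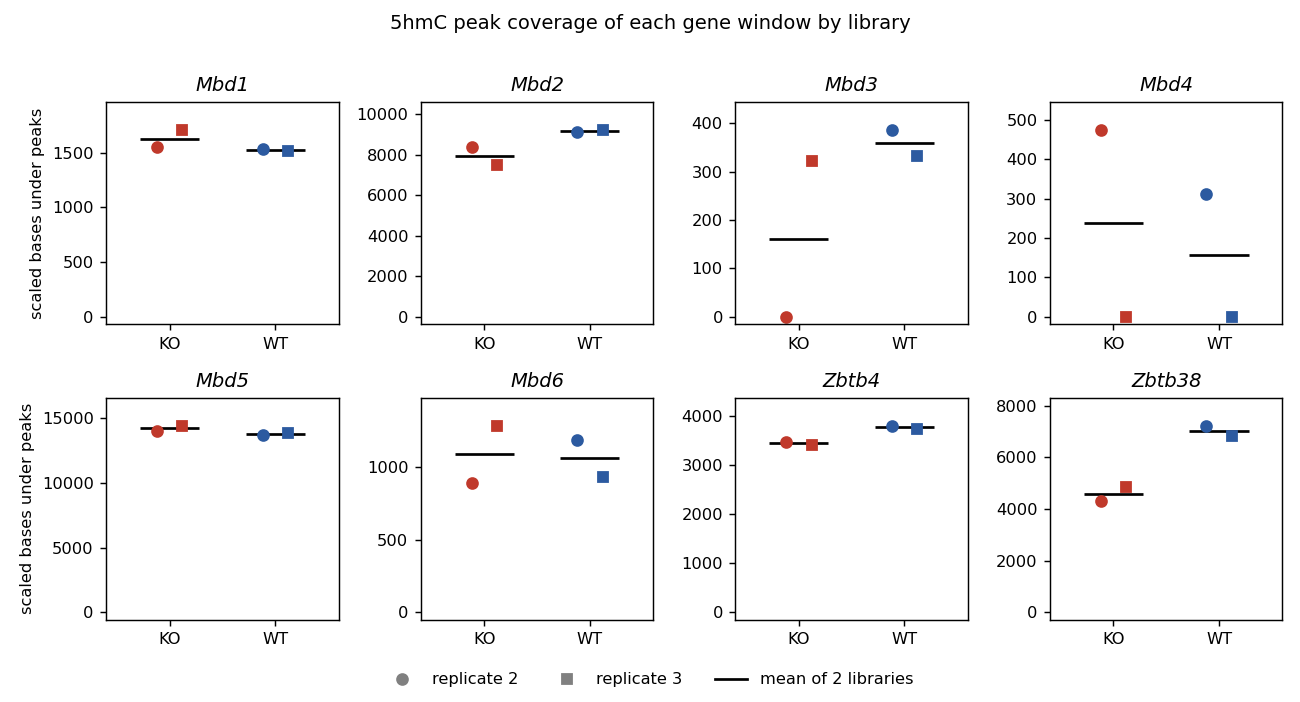
Scaled bases under 5hmC peaks in the window of each of the 8 genes (vertical axes from 0, a scale per gene), KO left of WT, with 1 point per library (circle, replicate 2; square, replicate 3) and a line at the mean of 2 libraries. Zbtb38 shows the widest gap relative to its level among the 6 tested genes, 4317 and 4869 bases in KO, against 7226 and 6840 in WT, while Mbd4 and Mbd6 overlap between genotypes.

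Across the 8 genes, 6 had enough coverage for the test over all genes (limma on log2 scaled bases plus 200, a mean of at least 500 bases, Benjamini-Hochberg adjustment). No gene passed an adjusted p of 0.05 in either direction (0 of 14001, 0%). An unadjusted p under 0.05 was found for 568 genes, and for 621 without limma's trend and robust options. Both counts are below a share of 0.05 of the tested genes, the share that this threshold gives where no gene differs. For the tested genes other than Zbtb38, Mbd1, Mbd2, Mbd5, Mbd6 and Zbtb4, the adjusted p from limma was 0.992 to 0.999. Both KO libraries were below both WT libraries for 3 of the 6 (Mbd2, Zbtb4 and Zbtb38), against 13.6% of all tested genes. Both KO libraries were above both WT libraries in scaled coverage for 2 of the 6 (Mbd1 and Mbd5), against 18.0% of tested genes. Scaling makes the library totals equal, so it removes any difference in coverage shared by all genes. Unscaled, the genotypes overlapped in both: Mbd1 had 1657 and 1451 bases in KO, against 1534 and 1646 in WT. Mbd5 had 15022 and 12273 in KO, against 13703 and 15070 in WT. Zbtb38 was chosen for this contrast, so the first count is a description. The median log2 change was -0.05 over the 6 genes and 0.02 over all tested genes. Without scaling, the median of all genes moved by -0.11, and Mbd1, Mbd5 and Mbd6 then changed sign (-0.03, -0.08 and -0.09).

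The authors' deposited tables list 15 WT-higher and 0 KO-higher regions in the 8 windows, of 24645 and 50 in all. At least 1 WT-higher region was found for 5 of the 8 genes, against 28.3% of genes with a union region. For KO-higher regions the share over those genes was 0.104%. The 5 genes include Zbtb38, which was listed for its WT-higher regions, so their count is a description. Zbtb38 held 10 of the 15, Mbd2 held 2, and Mbd3, Mbd5 and Zbtb4 held 1 each. By union regions, 12 of 92 (13.0%) contained a WT-higher region, 7 of them in Zbtb38, which was listed for them. Without Zbtb38 the share was 5 of 77 (6.49%, Wilson 95% interval 2.81 to 14.3%), close to the 7.26% of all gene windows. Of the 15, 5 overlapped a peak in all 4 libraries, where this held for 76.1% of all WT-higher regions. Within Zbtb38, which holds most of the 15, it was 2 of 10. Over the 92 union regions a peak was present in every library for 60.9% (58.0% over all gene windows), in the WT libraries alone, both of them, for 6 (6.52%, against 2.24%), and likewise in the KO libraries alone for 0 (against 1.26%). Of those 6, 3 lay in Zbtb38, 2 in Mbd2 and 1 in Mbd5. Without Zbtb38, which was listed for lower 5hmC in KO, the share in both WT libraries alone was 3 of 77 (3.90%).

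**Figure D5:**
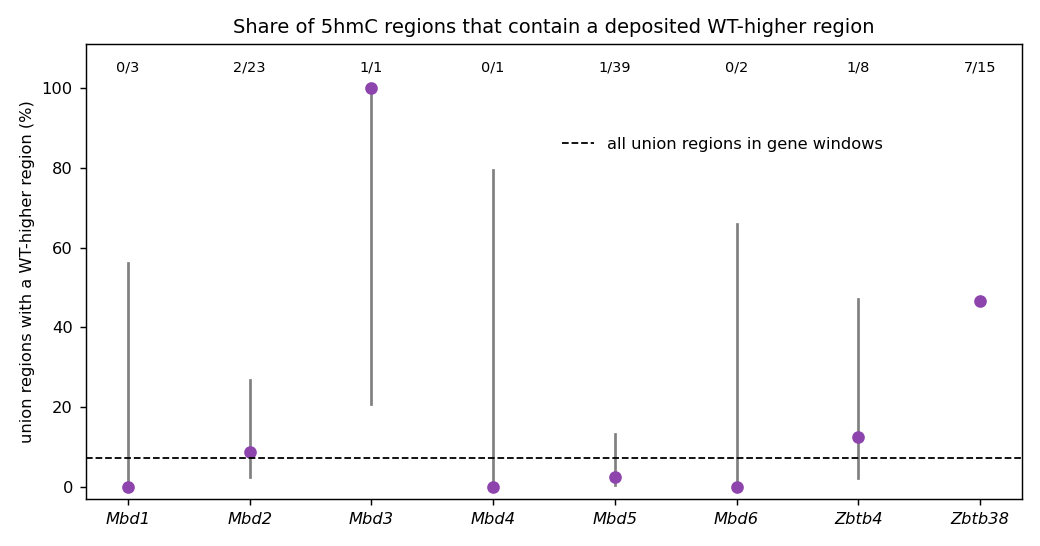
Percent of union regions that contain a deposited WT-higher region for each gene (points), with Wilson 95% intervals (lines) for the genes other than Zbtb38, the counts above, and a dashed line at 7.26% for all union regions in gene windows. Zbtb38 (7 of 15) was listed for this value and has no interval, and the point of Mbd3 rests on 1 region (1 of 1).

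Genes that work with these proteins were listed by complex. Of the 10 other genes for MBD domain and methyl-CpG-binding proteins, 3 had WT-higher regions: Baz2b, a chromatin reader gene, had 11 in 55 union regions, and Uhrf1, the maintenance methylation cofactor, and Uhrf2 had 1 each. In this list 0 of 7 tested genes passed in either direction (median log2 change -0.11, range -1.20 for Uhrf1 to 0.79). Zbtb33, a zinc finger reader related to Zbtb4 and Zbtb38, had no peak in any library and is named for that after its values were seen. NuRD genes, partners of Mbd2 and Mbd3, had 10 WT-higher regions in 5 of 12 genes, 6 of them in Mta3, with 0 of 10 tested genes passing (median -0.06). In Mta3, which encodes a NuRD scaffold subunit, the log2 change was -0.30 (standard error 0.10, limma adjusted p = 0.992).

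PR-DUB genes, partners of Mbd5 and Mbd6, had 2 WT-higher regions, in Foxk1 and Kdm1b, and 0 of 6 tested genes passed (median -0.07). Bap1, the deubiquitinase of the complex, and Hcfc1 had no peak in any library and are named for that after their values were seen. Repair genes that act with Mbd4 had 5 WT-higher regions, 4 of them in Xrcc1, with 0 of 4 tested genes passing (median -0.15, all 4 below 0, as were 46.5% of all tested genes). Corepressor genes had 20 WT-higher regions in 4 of 8 genes, among them 7 in Tbl1xr1, 6 in Atf7ip and 1 in Ncor1, and 0 of 6 tested genes passed (median -0.16). Atf7ip encodes the factor that links Mbd1 to its histone methyltransferase. The share of union regions with a WT-higher region was 12.9% in the reader list, 9.38% for NuRD and 2.63% for PR-DUB genes. It was 14.7% for repair and 13.9% for corepressor genes, beside 7.26% in all gene windows. Baz2b held 9 of the 11 such regions of the reader list, and Xrcc1 4 of the 5 of the repair list. Among marker genes it was 24 of 150 (16.0%) for germinal center B cells, 5 of 50 for myeloid and 2 of 21 (9.52%) for plasma cells. For T cell and erythroid markers it was 0 of 25 and 0 of 4. Shares above 7.26% were thus not limited to the lists of genes that work with these proteins.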

How the data were processed

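The submitters' processing notes name BWA 0.7.12-r1039, MACS2 2.1.0.20151222 and GRCm38.p3, without settings. The authors deposited 1 peak list per immunoprecipitated library, with a score, a fold enrichment (a ratio over local background) and −log10 values of p and q per peak, and a pair of tables of differential regions with a score whose scale and caller are not stated. Per the file headers, these list regions enriched in KO or in WT cells.

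The 8 genes and the lists were chosen with earlier results of these data known. Named genes were the 8 members, up to 4 genes of each list with the most WT-higher regions, the nearest neighbors of Zbtb38 and the 5 genes most like it. Some genes that this rule names are not reported here. Gene spans came from RefSeq (GRCm38.p6, whose primary chromosomes share coordinates with GRCm38.p3), widened by 2 kb on each side. Where windows hold other genes (Cfap53 for Mbd1, Ift122 for Mbd4, Orc4 for Mbd5, Dctn2 and Ddit3 for Mbd6, Chrnb1 for Zbtb4), peaks cannot be assigned to 1 gene. Start windows were matched for 6 of the 8 genes.

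Covered bases per gene were scaled to equal totals over gene windows and tested as log2(bases + 200) with limma 3.58.1 (trend, robust) in R 4.3.3, which was tested on simulated data. Folds on this scale understate changes of low genes. Summit reads and local backgrounds were recovered from fold enrichment and −log10 p, to whole reads in at least 99.8% of peaks within 0.001 of the deposited value. Union regions are peaks merged where they touch, and overlap means at least 1 bp. A 2 against 2 exact permutation test cannot go below 0.333, so none was run. Alternatives were other pseudocounts, filters, scalings, spans, peak and score thresholds, overlaps and limma options, a replicate block, and each library left out, where the lone library is assumed to vary like the other genotype. Peaks were handled with Python 3.11.15 and pandas 2.3.3.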

Additional observations from a re-analysis of the deposited data

How the results depend on the processing

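No alternative gave a gene past the threshold, and the fit with a replicate block gave 0 too. Whether same-numbered libraries share more than the number is not stated in the labels. Their deviations correlated at 0.09 over 14001 genes, which cannot settle it with so few libraries. The median log2 change of the 6 tested genes of the list (-0.05) was -0.17 without scaling and 0.0148 with peaks of at least 5-fold enrichment, where 4 genes could be tested, and ran from -0.13 to -0.0353 with 1 library left out (-0.12 without KO replicate 3, -0.13 without WT replicate 3). Zbtb38 stayed between -0.72 and -0.41 in 12 of 13 alternatives and turned to 0.11 among peaks of at least 5-fold enrichment, where Mbd2 turned to 0.0199. Mbd1 (-0.0311), Mbd5 (-0.0806) and Mbd6 (-0.088) turned without scaling. Mbd5 (-0.0018) turned with equal numbers of peaks, and Mbd6 without KO replicate 3 (-0.20) and without WT replicate 3 (-0.13), with 0.2425 as the highest, without KO replicate 2. Zbtb4 turned in none of 13, and was -0.66 among peaks of at least 5-fold enrichment. At a deposited score of at least 5, 6 of 15 WT-higher regions were left, in 4.35% of union regions. That score lies above the median of all WT-higher regions, 4.77, and the share over all gene windows was not computed at it. The share of union regions with a peak in all libraries was 34.2% among peaks of at least 5-fold enrichment. With 1 library left out these shares were 12.9% to 13.6% and 64.4% to 68.2%. The causes were not tested. Read totals are unknown, so a missing peak may be one not detectable at the depth of its library.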
